A study of Mus musculus with 6 samples.

Results

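The genes described here are 10 components of MHC class I antigen presentation, namely H2-K1, H2-D1, B2m, Tap1, Tap2, Tapbp, Psmb8, Psmb9, Psmb10 and Nlrc5. They were chosen by name from the pathway, as the rows of the count table that carry these symbols, and make up 10 of the 55487 genes listed. Of these, 9 were among the 12669 genes expressed highly enough to be tested. Psmb8 was the exception, at 0, 4 and 0 counts in the control libraries and 3, 3 and 1 counts in the knockdown libraries.

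All RNA came from B16F10, a mouse melanoma line for which the labels give the cell type as melanoma and the cell line as B16. Control cells (shCtr, genotype WT) carried a scramble shRNA and depleted cells (shOSGEP, genotype KD OSGEP) carried the hairpin OSGEP#2 against OSGEP, the catalytic subunit of the KEOPS complex that modifies the anticodon loop of tRNAs. By the methods of the study both groups were infected with lentivirus and selected with puromycin. In these libraries the knockdown rests on a single hairpin without a rescue. Other experiments of the study also used a further OSGEP hairpin or depleted LAGE3, another KEOPS subunit. Each group held 3 infections, labelled replicates 1, 2 and 3, and the p-values below measure the spread between these infections unless stated otherwise.

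MHC class I molecules display peptides from the cytosol on the cell surface, where CD8 T cells read them. A heavy chain, encoded by H2-K1 or H2-D1 in this strain of mouse, pairs with the light chain B2m. Peptides are cut by the proteasome, whose catalytic subunits can be exchanged for the inducible Psmb8, Psmb9 and Psmb10. They are then pumped into the endoplasmic reticulum by the Tap1 and Tap2 transporter and loaded with the help of Tapbp (tapasin). Nlrc5 is the transactivator that drives most of these genes together, and interferons raise it. B16F10 is known for low surface class I that interferon can induce.

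Tap2 and Nlrc5 stood highest among the 9 genes tested in the fitted difference between shOSGEP and shCtr, with mean levels 3.25-fold and 3.20-fold higher in shOSGEP. The heavy chains H2-K1 and H2-D1, and Psmb9, were higher in shOSGEP within each of the 3 replicate numbers, with the widest gap in replicate 2. B2m, Tap1, Tapbp and Psmb10 had fitted differences of 0.33 or less on the log2 scale. By the quasi-likelihood F-test of edgeR, adjusted after Benjamini and Hochberg over the 12669 genes, 0 members had an adjusted p under 0.05, as did 0% of all genes tested.

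The class I promoters share short sequence elements that their regulators bind, and these were read from RefSeq promoter sequences of mouse build GRCm38.p6, which span 250 bases before to 50 bases after a gene's start. Sequences were held for 8 of the 10 members, without Tap2 and Nlrc5. The letters searched on both strands were GGGATTCCC (a kappaB element), GAAANNGAA or GAANNGAAA (an interferon-stimulated response element, ISRE), TGACG (the X2 element bound by CREB family factors) and ATTGG (the Y element bound by NF-Y). Both forms of the ISRE letters can match the same bases. The stretches upstream of the starts of H2-K1 (130 bases, chr17:34000348-34000477, minus strand) and B2m (150 bases, chr2:122147537-122147686, plus strand) are shown because they hold the elements in their usual order, with matches on either strand in capitals.
H2-K1: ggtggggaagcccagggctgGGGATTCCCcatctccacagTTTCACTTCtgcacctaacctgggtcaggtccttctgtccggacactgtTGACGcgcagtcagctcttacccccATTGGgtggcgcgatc
B2m: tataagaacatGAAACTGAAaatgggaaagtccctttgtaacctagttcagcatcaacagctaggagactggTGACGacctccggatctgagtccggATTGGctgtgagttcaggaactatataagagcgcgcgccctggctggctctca

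H2-K1, H2-D1 and B2m shared the spacing of their last elements. In each, TGACG began 25 bases before ATTGG on the same strand. That arrangement was found in 31 of the 32851 promoters of the table (0.0944%), whereas TGACG alone was found in 20.8% and ATTGG alone in 37.4%. The spacing counted was the one these genes show, and their own promoters are among the 31, so the share is descriptive. The stretches from TGACG to ATTGG, 30 bases each with both elements included, are set side by side.
H2-K1 X2 to Y: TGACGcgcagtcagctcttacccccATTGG
H2-D1 X2 to Y: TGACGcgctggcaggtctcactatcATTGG
B2m X2 to Y: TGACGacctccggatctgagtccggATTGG

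H2-K1 and H2-D1 were identical at 23 of these 30 bases, and B2m matched H2-K1 at 13 and H2-D1 at 12. Each count includes the 5 bases of TGACG and the 5 of ATTGG, which match because the stretches were picked by them. From the kappaB to the ISRE letters the heavy chain genes were identical at 28 of 29 bases. Here too the fixed letters of both elements match by selection.
H2-K1 kappaB to ISRE: GGGATTCCCcatctccacagTTTCACTTC
H2-D1 kappaB to ISRE: GGGATTCCCcatctcctcagTTTCACTTC

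The H2-D1 stretches (chr17:35262993-35263022 and chr17:35262924-35262952, plus strand) lie before the RefSeq start but inside the first exon of a longer GENCODE M21 transcript. The kappaB letters were found in 0.353% of all promoters and either form of the ISRE letters in 14.8%. B2m held the ISRE letters, 139 bases before its start, and no match to GGGATTCCC in this window. Other forms of a kappaB element were not searched. Tap1 and Psmb9 lie head to head, and the stretch between their starts held 1 match each to TGACG and ATTGG. Tapbp held 2 matches to ATTGG, and Psmb8 and Psmb10 held none of the motifs. A match describes the letters only, since no binding was measured.

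The 10 genes lie on 3 chromosomes (GRCm38, GENCODE M21 annotation), and all are protein-coding. The MHC region of chromosome 17 holds 7 of them, from Tapbp (33915899 to 33929292) and H2-K1 (33996017 to 34000347) through Psmb9 (34181987 to 34187764), Tap1 (34187553 to 34197225), Psmb8 (34197721 to 34201454) and Tap2 (34203527 to 34216321) to H2-D1 (35262730 to 35267499). Chromosome 2 holds B2m (122147686 to 122153083), and chromosome 8 holds Nlrc5 (94434356 to 94527272) and Psmb10 (105935735 to 105938444). Values are estimated counts over all exons of a gene.

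The libraries were checked before the genes were compared. Totals ranged from 18915587 to 29487384 counts. Values per library are given as CPM, which are counts scaled to the library total after TMM normalisation, always in the order of replicates 1, 2 and 3. Osgep was at 485, 1193 and 473 counts in shCtr and 92, 14 and 130 counts in shOSGEP, so each library followed its label. Both replicate 2 libraries stood apart. In shCtr replicate 2 the 3241 genes under 45% GC lay at a median of -2.03 from their mean on the log2 scale, against -0.10 to 0.96 in the other 5 libraries, and its TMM factor was 0.690, against 1.04 to 1.14. In shOSGEP replicate 2 the 7 melanocyte markers, none of them at 0, summed to 3551 CPM, against 15387 to 29599 CPM in the others. The median Log2FC over all genes tested, where Log2FC is the log2 fold change of shOSGEP over shCtr fitted by edgeR, was -0.03. The threshold of the study was an unadjusted p under 0.05 with a Log2FC beyond 0.5 in either direction.

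Whether other cells contributed was examined through leukocyte markers, since leukocytes carry abundant class I and immunoproteasome transcripts. Of 9 such markers, 5 (Ptprc, Cd3e, Itgam, Adgre1 and Itgax) were at 0 counts in all 6 libraries, and the list summed to between 1.52 and 3.68 CPM. The highest sum was in shOSGEP replicate 2, which also held 13 counts of Csf1r, at 0 in the 3 shCtr libraries. Fibroblast markers summed to between 0.639 and 4.11 CPM and endothelial markers to at most 0.31 CPM. As RNA was taken in bulk, fewer cells expressing a gene and less RNA of it per cell cannot be told apart.

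The heavy chain H2-K1 was measured at 10.6, 23.7 and 8.35 CPM in shCtr and 16.4, 93.2 and 11.0 CPM in shOSGEP. The shOSGEP library of replicate 2 was far above the other 5, while those of replicates 1 and 3 lay within the range of shCtr. Group means were 14.2 ± 8.32 and 40.2 ± 46.0 CPM (SD, n = 3). Its Log2FC of 1.50 (SE 0.853) did not pass the test in edgeR (unadjusted p = 0.116, adjusted p = 1.00). Within replicates 1, 2 and 3, shOSGEP was 1.55-fold, 3.92-fold and 1.32-fold above shCtr. Without both libraries of replicate 2 the Log2FC was 0.53, and without shOSGEP replicate 2 alone it was -0.03. Offsets for GC content and transcript length moved H2-K1 to an unadjusted p under 0.05 in edgeR (Log2FC 1.62, unadjusted p = 0.0403), as did omitting the filter on low counts (Log2FC 1.50, unadjusted p = 0.0412).

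H2-D1 encodes the other classical heavy chain and was the more abundant of the pair per kilobase of exon, at 97.2, 338 and 103 CPM in shCtr against 156, 703 and 150 CPM in shOSGEP. Again both replicate 2 libraries were the highest of their group, and shOSGEP replicates 1 and 3 fell between shCtr replicates 3 and 2, so the groups overlapped. Its means were 179 ± 137 CPM in shCtr and 336 ± 317 CPM in shOSGEP (SD, n = 3), with a Log2FC of 0.91 (SE 0.772, edgeR unadjusted p = 0.272). The gap within a replicate number was even, at 1.60-fold, 2.08-fold and 1.46-fold. With a replicate block in edgeR, which compares same-numbered libraries, the Log2FC was 0.76 (SE 0.280) and the unadjusted p 0.0379 (adjusted p = 0.741). Leaving out shCtr replicate 2 also moved H2-D1 past the threshold (Log2FC 1.75, edgeR unadjusted p = 0.0450), and leaving out shOSGEP replicate 2 turned its sign (-0.20).

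Salmon divides reads shared between similar genes by likelihood, and this bears on both heavy chains. Of the 31-base words in the transcripts of H2-K1, 22.8% were also found in another gene, and 26.9% of those of H2-D1. A division of reads between the heavy chains could shift the level of each. The log2 ratio of H2-K1 to H2-D1 within a library differed by 0.22 between the groups (exact permutation test, two-sided p = 0.5).

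B2m, the light chain of every class I molecule, was the most abundant member per kilobase of exon. Its libraries held 424, 605 and 326 CPM in shCtr and 433, 795 and 317 CPM in shOSGEP. The groups overlapped throughout, and the lowest value of all was in shOSGEP replicate 3. The fold within a replicate number was 1.02, 1.31 and 0.972. Its Log2FC was 0.19 (SE 0.496, edgeR unadjusted p = 0.714). B2m differs in base composition from the rest, with 41.2% GC in its longest transcript against 52.5% to 57.1% in the other 9 members. Genes under 45% GC lay low in shCtr replicate 2, at a median of -2.03 on the log2 scale. In that library B2m was at its highest shCtr level, 605 CPM. What part the shift has in B2m was not tested. With GC and length offsets its Log2FC was -0.59, and without both libraries of replicate 2 it was -0.0011.

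Set against B2m in the same library, the heavy chains were higher in shOSGEP within each number. For H2-D1, the log2 ratio to B2m was -2.12, -0.84 and -1.66 in shCtr and -1.47, -0.18 and -1.08 in shOSGEP. The gain within a number was nearly constant, at 0.65, 0.66 and 0.58, while the libraries of one group were spread over more than that. The groups differed by 0.63 in the mean (exact permutation test, two-sided p = 0.4; exact sign-flip test over the 3 numbers, p = 0.25, the smallest that 3 pairs allow). For H2-K1 the gain in its ratio to B2m was 0.58, 1.56 and 0.42 (mean difference 0.85, exact permutation p = 0.3). The GC content was 41.2% for B2m and 55.9% for H2-D1. Genes under 45% GC lay at a median of -2.03 in shCtr replicate 2 and -0.10 in shOSGEP replicate 2. With GC and length offsets the fitted Log2FC was 1.23 for H2-D1, 1.62 for H2-K1 and -0.59 for B2m. These ratios were not taken with the offsets, and what part GC content has in them was not tested. Both means moved with single libraries. For H2-D1 the difference was 0.27 when shOSGEP replicate 2 was left out, 0.34 when shCtr replicate 1 was and 0.98 when shCtr replicate 2 was, and for H2-K1 it was 0.30 without shOSGEP replicate 2 and up to 1.15 on leaving out another library.

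**Figure D1:**
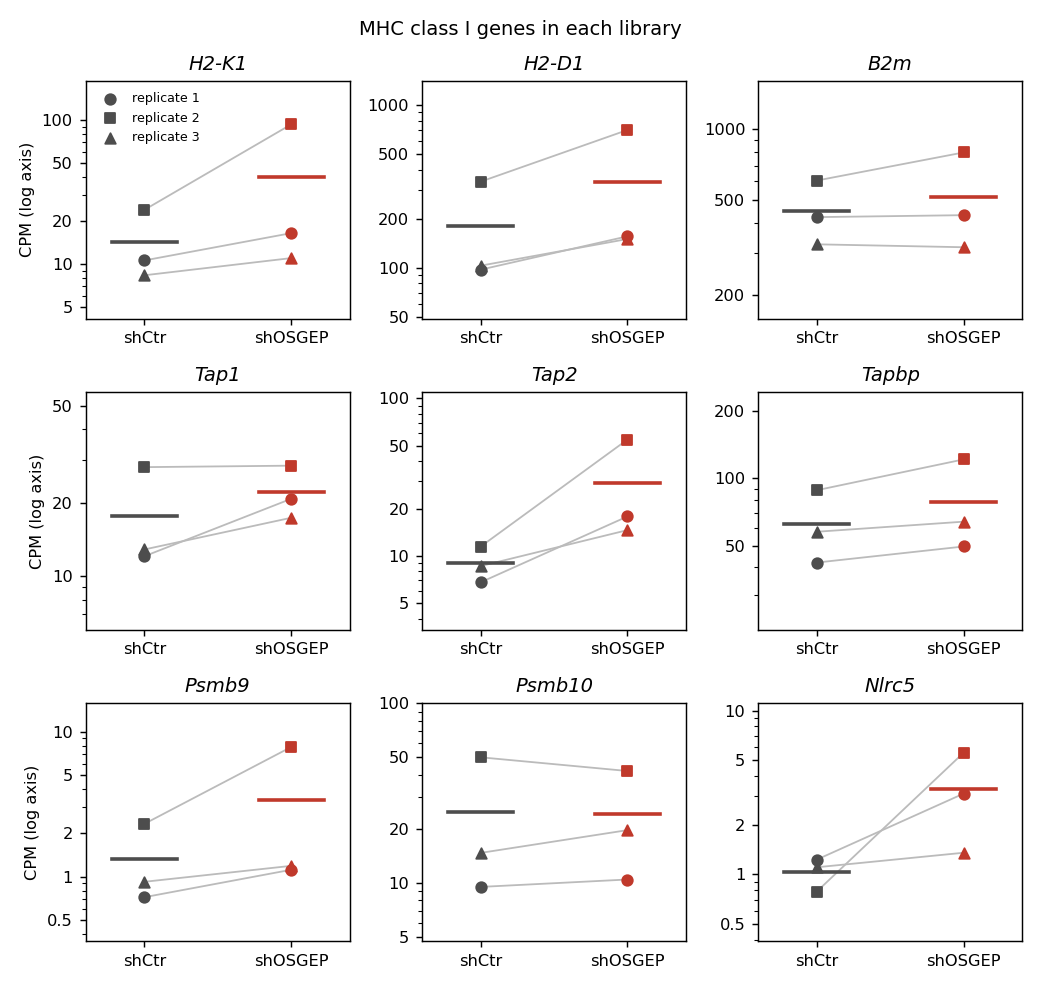
Level of the 9 members tested, in CPM on a log axis, in each of the 3 shCtr (grey) and 3 shOSGEP (red) libraries, with lines joining libraries of one replicate number and bars at the group means. In Tap2 and Nlrc5 the groups do not overlap, and for 7 of the 9 genes, all but B2m and Psmb10, each of the 3 lines runs upward.

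Tap2, which with Tap1 forms the peptide transporter, showed the most separated values of the transport and loading genes. The shCtr libraries held 6.80, 11.5 and 8.62 CPM (160, 233 and 187 counts) and the shOSGEP libraries 17.8, 54.8 and 14.6 CPM (383, 1415 and 344 counts). Every shOSGEP library was above every shCtr library, and replicate 2 was the highest in both groups. Means were 8.96 ± 2.35 and 29.1 ± 22.4 CPM (SD, n = 3). Tap2 passed the threshold of the study with a Log2FC of 1.70 (SE 0.611, edgeR unadjusted p = 0.0232, adjusted p = 1.00). By exact permutation of the libraries its two-sided p was 0.1, below which 3 against 3 cannot go. The gap was not confined to replicate 2. Within the numbers shOSGEP was 2.62-fold, 4.79-fold and 1.69-fold above shCtr, and without both libraries of replicate 2 the Log2FC was 1.07 (edgeR unadjusted p = 0.0138). The call was lost without shOSGEP replicate 2 alone (Log2FC 0.87, unadjusted p = 0.0919), without shCtr replicate 1 (1.53, unadjusted p = 0.0663) and without shCtr replicate 3 (1.67, unadjusted p = 0.0673), all by edgeR. It was also lost without both libraries of replicate 1 (Log2FC 1.80, edgeR unadjusted p = 0.0572) and without both of replicate 3 (1.99, unadjusted p = 0.0653). With the replicate block the Log2FC was 1.47 (SE 0.402, edgeR unadjusted p = 0.0123).

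Tap1, the partner of Tap2, held 12.1, 28.0 and 12.9 CPM in shCtr, against 20.7, 28.4 and 17.4 CPM in shOSGEP. The libraries of replicate 2 were level with each other, and shOSGEP was higher in the other pairs. The fold within a number was 1.72, 1.01 and 1.35, so that the fold of Tap1 was smallest in the number where that of Tap2 was largest. Its Log2FC was 0.33 (SE 0.496, edgeR unadjusted p = 0.525), and with GC and length offsets together with the replicate block it passed the threshold (Log2FC 0.60, unadjusted p = 0.0223). Single libraries moved it, with a Log2FC of 0.12 when shCtr replicate 1 was left out, 0.15 when shCtr replicate 3 was, 0.13 when shOSGEP replicate 2 was and 0.83 when shCtr replicate 2 was. Without both libraries of replicate 2 it was 0.61, and without both of replicate 1 it was 0.17. Relative to Tap2 in the same library, Tap1 was lower in shOSGEP. The log2 ratio of Tap1 to Tap2 was 0.78, 1.25 and 0.55 in shCtr and 0.21, -0.94 and 0.24 in shOSGEP, without overlap. The mean difference was -1.02 (exact permutation p = 0.1, adjusted over 5 ratios 0.5), and the ratio was lower in 3 of 3 numbers, by -0.57, -2.19 and -0.31. Leaving out shOSGEP replicate 2 brought the mean difference to -0.63.

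Tapbp, the chaperone that holds empty class I molecules at the transporter, was at 42.0, 88.6 and 57.7 CPM in shCtr and 49.6, 122 and 64.1 CPM in shOSGEP. The groups overlapped, with replicate 2 the highest in each, and the fold within a number stayed between 1.11 and 1.37. Its Log2FC was 0.32 (SE 0.498, edgeR unadjusted p = 0.536), and without shOSGEP replicate 2 it was -0.12. Tapbp shares sequence with Gm19412, which lies on the opposite strand and accounts for 22.1% of its 31-base words. Strand was not stated to be kept by the kit, which leaves the reads of the pair uncertain, although Gm19412 itself held between 27 and 165 counts. On the same strand Tapbp overlaps Zbtb22, which held between 515 and 1199 counts. The strand doubt also touches Tap1 and Psmb9, whose annotated spans overlap on opposite strands. Tap2 overlaps Gm15821 and Gm20496 on the opposite strand, which held at most 5 and 0 counts in a library. Gm15821 shares 11.3% of the 31-base words of Tap2.

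The inducible proteasome subunits did not share a pattern. Psmb9 (beta1i) held 0.722, 2.31 and 0.922 CPM in shCtr, against 1.12, 7.83 and 1.19 CPM in shOSGEP, from 17, 47 and 20 counts and 24, 202 and 28 counts. The library of shOSGEP replicate 2 alone was outside the range of shCtr. Its Log2FC was 1.36 (SE 0.913, edgeR unadjusted p = 0.174) and turned to -0.16 without that library, while the fold within a number was 1.55, 3.39 and 1.29. Psmb10 (beta2i) was at 9.48, 50.0 and 14.7 CPM in shCtr and 10.4, 42.0 and 19.6 CPM in shOSGEP. Here the libraries of replicate 2 were high in both groups, and the Log2FC was -0.04 (SE 0.748, edgeR unadjusted p = 0.957). Psmb8 (beta5i) was at or near the floor of 3 counts in all 6 libraries, so that no fold could be given. A floor of 3 counts stood for 0.116 to 0.147 CPM, for counting error only.

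The inducible subunits replace constitutive ones, Psmb9 replacing Psmb6, Psmb10 replacing Psmb7 and Psmb8 replacing Psmb5. Per kilobase of exon, Psmb9 stood at 0.281%, 0.156% and 0.249% of Psmb6 in shCtr, and at 0.542%, 1.11% and 0.260% in shOSGEP. Psmb10 stood at 9.85%, 22.6% and 12.4% of Psmb7 in shCtr and at 12.0%, 18.7% and 16.9% in shOSGEP. Psmb8 did not exceed 0.0407% of Psmb5. Transcripts of the constitutive subunits thus outnumbered those of the inducible ones in every library. The log2 ratio of Psmb9 to Psmb6 was higher in shOSGEP by 1.10 in the mean (exact permutation test, two-sided p = 0.3), with differences of 0.72, 2.63 and -0.06 within the numbers. For Psmb10 to Psmb7 the mean difference was 0.15 (exact permutation p = 0.8), from 0.28, -0.27 and 0.44. The groups overlapped in both pairs. The ratio of Psmb8 to Psmb5 was set by the 0.5 CPM added to each gene and by the level of Psmb5, since Psmb8 lay at the floor, and it says nothing of Psmb8. The mean over the 3 pairs, which holds that ratio too, differed by 0.60 (exact permutation p = 0.2).

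**Figure D2:**
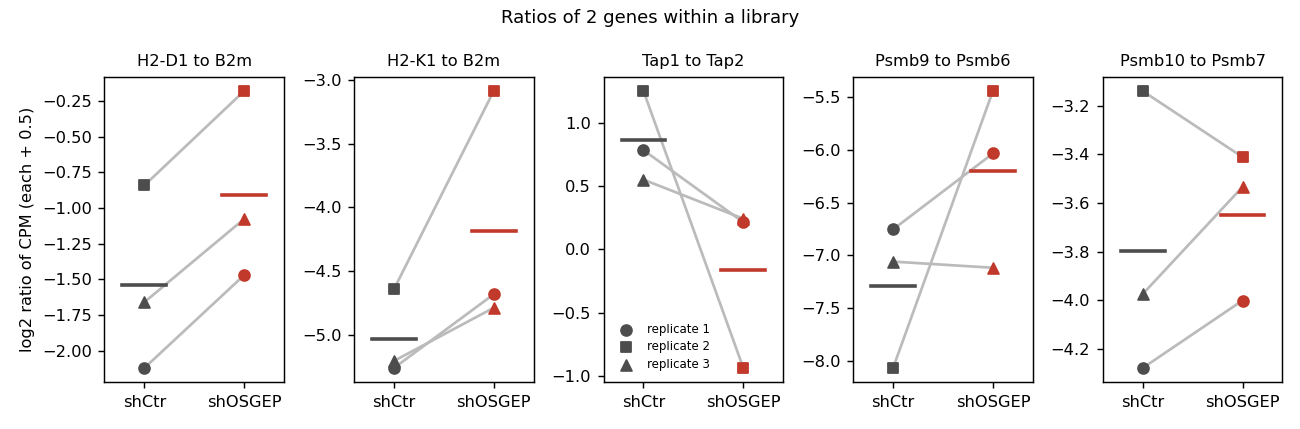
Log2 ratio of the CPM of 2 genes in the same library, after adding 0.5 CPM to each, for shCtr (grey) and shOSGEP (red), with lines joining libraries of one replicate number and bars at the group means. The 3 lines of H2-D1 to B2m are nearly parallel, at 0.65, 0.66 and 0.58, and those of Tap1 to Tap2 run down, by -0.57, -2.19 and -0.31.

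Nlrc5, the transactivator of the class I genes, was weakly expressed, at 29, 16 and 24 counts in shCtr and 67, 143 and 32 counts in shOSGEP. In CPM these were 1.23, 0.787 and 1.11 against 3.12, 5.54 and 1.36. The groups did not overlap, but shOSGEP replicate 3 was close to shCtr replicate 1. Means were 1.04 ± 0.230 and 3.34 ± 2.10 CPM (SD, n = 3). Nlrc5 passed the threshold of the study with a Log2FC of 1.67 (SE 0.658, edgeR unadjusted p = 0.0335, adjusted p = 1.00), and the exact permutation test gave its smallest p of 0.1. Unlike the other members, Nlrc5 was lowest of all in shCtr replicate 2, so its fold in replicate 2 was 7.05, against 2.53 and 1.23 in the others.

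Nlrc5 missed the threshold in 11 of 19 alternatives, against 5 for Tap2. With the replicate block the Log2FC was 1.48 (SE 0.611, edgeR unadjusted p = 0.0556), and without both libraries of replicate 2 it was 0.93 (unadjusted p = 0.175). In edgeR the threshold was also missed without shCtr replicate 1 (Log2FC 1.81, unadjusted p = 0.0598), shCtr replicate 2 (1.51, unadjusted p = 0.0680), shCtr replicate 3 (1.72, unadjusted p = 0.0861), shOSGEP replicate 1 (1.72, unadjusted p = 0.0656) or shOSGEP replicate 2 (1.10, unadjusted p = 0.128). Its direction was kept in all 19 alternatives, at 0.90 to 2.09.

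The order of levels was much the same in both groups. Per kilobase of exon, the shCtr means were 525 ± 165 CPM for B2m, 69.5 ± 53.2 for H2-D1, 17.3 ± 6.53 for Tapbp, 14.5 ± 12.9 for Psmb10, 4.84 ± 2.83 for H2-K1, 3.22 ± 1.64 for Tap1, 2.37 ± 0.620 for Tap2, 0.360 ± 0.236 for Psmb9 and 0.123 ± 0.0271 for Nlrc5 (SD, n = 3). Psmb8 was last at 0.0194. From Tapbp down to Tap2 each neighbour in this order overlapped the next over the libraries, whereas B2m and H2-D1 stood clear above and Psmb9, Nlrc5 and Psmb8 clear below. In shOSGEP the order differed in 1 place, with Tap2 (7.69 ± 5.91) above Tap1 (4.05 ± 1.03), and these overlapped. There, Psmb9 and Nlrc5 overlapped as well.

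Counted over the list, 2 of the 9 members tested, Tap2 and Nlrc5, passed the threshold of the study with a higher level in shOSGEP, where 1.59% of all genes tested did so. With a lower level, 0 members passed, where 0.426% of genes did. With the replicate block, 2 members, H2-D1 and Tap2, passed with a higher level, against 2.32% of genes. The groups did not overlap for Tap2 and Nlrc5, both higher in shOSGEP, as for 3.49% of genes, and for 0 members with shOSGEP lower, as for 2.87% of genes. The 10 genes were named with earlier results of these data known, so the counts describe the list.

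Within the replicate numbers the members leaned the same way. In replicate 1 all 9 were higher in shOSGEP, in replicate 2 all but Psmb10, and in replicate 3 all but B2m. Higher in 3 of 3 numbers were 7 of the 9 members, against 17.6% of all genes tested. The median log2 ratio of the members was 0.63, 1.06 and 0.39 in replicates 1, 2 and 3, beside medians over all genes of -0.03, 0.11 and -0.01. The fitted Log2FC had a median of 0.91 over the members, and 0.53 without both libraries of replicate 2. Without shOSGEP replicate 2 alone the median was -0.12, and 0 members passed the threshold. That fit kept shCtr replicate 2 among the controls without its numbered partner, and what part this has in the median was not tested.

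**Figure D3:**
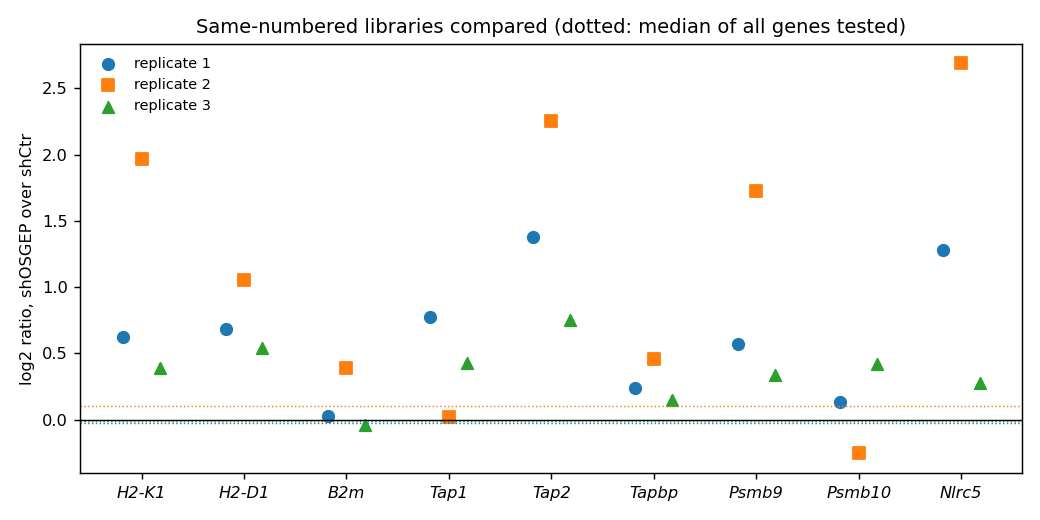
Log2 ratio of shOSGEP over shCtr for each of the 9 members tested, between libraries of the same replicate number, with dotted lines at the medians over all genes tested. Replicates 1 and 3 lie mostly between 0 and 1, while replicate 2 exceeds 1.5 for H2-K1, Tap2, Psmb9 and Nlrc5 and is near 0 for Tap1.

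One fit called members after adjustment. Limma-voom with sample quality weights and the replicate block, which gives less weight to libraries that scatter, put 5 members at an adjusted p under 0.05, all higher in shOSGEP, as it did 6.73% of all genes tested. These were Tap2 (Log2FC 1.22, adjusted p = 3.42e-09), H2-D1 (Log2FC 0.65, adjusted p = 0.00019), Nlrc5 (Log2FC 1.10, adjusted p = 0.0017), Tap1 (Log2FC 0.67, adjusted p = 0.00223) and H2-K1 (Log2FC 0.60, adjusted p = 0.0111). The Log2FC of B2m (0.013), Tapbp (0.22), Psmb9 (0.58) and Psmb10 (0.22) did not pass in it. The p-values of this fit draw on variance pooled over genes, since the block leaves few degrees of freedom per gene. Its Log2FC lay near those of edgeR without both libraries of replicate 2. These were 1.07 for Tap2, 0.62 for H2-D1, 0.93 for Nlrc5, 0.61 for Tap1 and 0.53 for H2-K1. In edgeR with the block, the adjusted p of Tap2 was 0.741. In the other 18 alternatives 0 members reached an adjusted p under 0.05. In edgeR without a block, 256 genes in all had an unadjusted p under 0.05, and DESeq2 placed 14 genes, none of them members, at an adjusted p under 0.05.

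**Figure D4:**
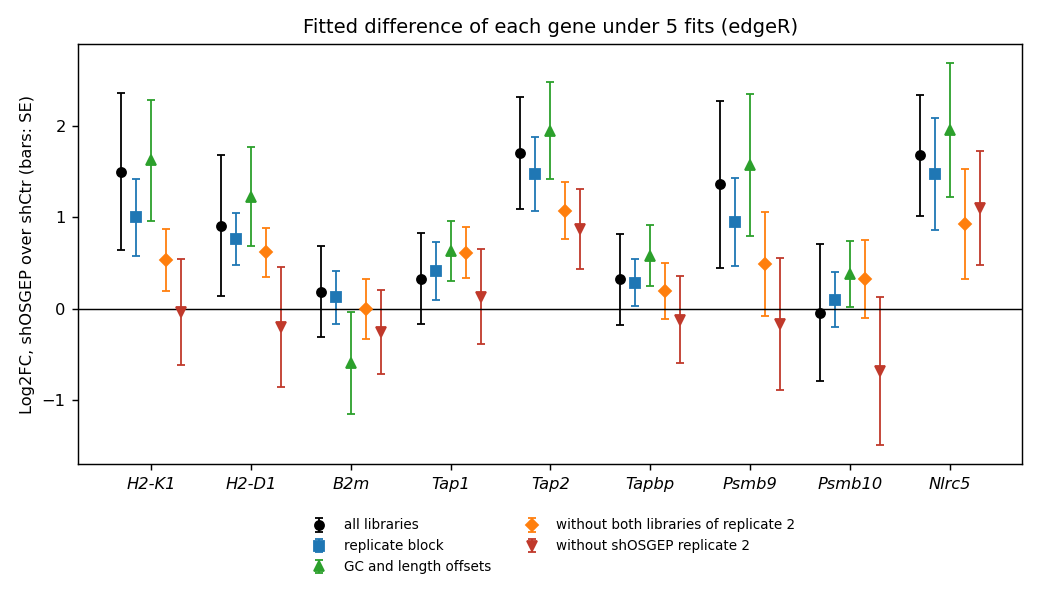
Fitted Log2FC of the 9 members tested under 5 edgeR fits, with bars for the standard error. Tap2 and Nlrc5 stay above 0 under each fit, at 0.87 to 1.95 for Tap2, whereas H2-K1, H2-D1, Tapbp and Psmb9 drop below 0 without shOSGEP replicate 2.

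The rest of the pathway was followed through 7 lists of 75 genes, of which 72 were found and 57 tested. Past the threshold of the study were 0 of these genes with a higher level in shOSGEP and 1 with a lower one, Nfyc. With the replicate block H2-Q4 and H2-M3 passed as higher, and Nfyc again as lower. The median Log2FC over the 57 genes was 0.03, with 31 above 0 and 26 below.

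The list of other class I heavy chains, which also holds class I-like genes and the pseudogene H2-K2, came closest to the members. It had 7 of 8 tested genes above 0, a median Log2FC of 0.35 and 0 past the threshold. H2-Q4, a Qa-region heavy chain, was at 17.2, 19.1 and 14.5 CPM in shCtr and 25.5, 53.7 and 24.1 CPM in shOSGEP. Of its 31-base words, 53.05% were also found in another gene, so the division of shared reads could shift its level. Its groups did not overlap, and its Log2FC was 1.03 (SE 0.471, edgeR unadjusted p = 0.0596; with the block 0.93, unadjusted p = 0.0330). H2-M3, which presents formylated peptides, was at 1.87, 3.05 and 1.20 CPM in shCtr and 3.86, 10.2 and 2.38 CPM in shOSGEP. Its groups overlapped by 1 library, and its Log2FC was 1.43 (SE 0.703, edgeR unadjusted p = 0.0753; with the block 1.27, unadjusted p = 0.0210). Left without shCtr replicate 2, both passed the threshold in edgeR, H2-Q4 at a Log2FC of 1.12 (unadjusted p = 0.0425) and H2-M3 at 1.83 (unadjusted p = 0.0379), and H2-M3 also did so without shOSGEP replicate 3 (1.78, unadjusted p = 0.0460). Without shOSGEP replicate 2 they dropped to 0.57 (edgeR unadjusted p = 0.193) for H2-Q4 and 0.63 (unadjusted p = 0.339) for H2-M3, and without both libraries of replicate 2 they were at 0.65 and 1.02.

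Genes for loading and quality control in the endoplasmic reticulum were split, 5 above 0 and 4 below (9 tested, median Log2FC 0.16). Tapbpl, a tapasin relative that edits peptides away from the transporter, had a Log2FC of 0.88 (edgeR unadjusted p = 0.182), and Calr (calreticulin) had -0.80 (unadjusted p = 0.185). The proteasome list, which holds the constitutive subunits and the activators, had 7 of 8 genes below 0 and a median of -0.10. Psmb5 and Psmb6, the partners displaced by Psmb8 and Psmb9, were at -0.68 (edgeR unadjusted p = 0.370) and -0.62 (unadjusted p = 0.428). The peptidases that trim peptides in the cytosol had a median of -0.13 over 5 genes, led by Thop1 at -0.71 (edgeR unadjusted p = 0.332). For Calr, Psmb5, Psmb6 and Thop1 the lowest fold within a number was in replicate 2, and without both of its libraries the Log2FC was -0.051 for Calr, -0.011 for Psmb5, 0.089 for Psmb6 and 0.21 for Thop1. None of the genes in these 3 lists passed the threshold, with or without the block.

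Among 15 transcription factors and chromatin regulators of class I, 9 were above 0 and 6 below, with a median Log2FC of 0.08. Irf1, an interferon-induced activator of class I genes, overlapped between groups at a Log2FC of 0.34 (edgeR unadjusted p = 0.508). Rfx5, which binds the X box next to NF-Y, stood at 0.08 (edgeR unadjusted p = 0.857).

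Nfyc encodes 1 of the 3 subunits of NF-Y, the factor that binds the Y element printed above for H2-K1, H2-D1 and B2m. Its level was 44.6, 113 and 59.9 CPM in shCtr and 21.7, 13.7 and 42.0 CPM in shOSGEP. Each shOSGEP library was below each shCtr library, by a Log2FC of -1.49 (SE 0.574, edgeR unadjusted p = 0.0306; with the block -1.50, unadjusted p = 0.0409). In edgeR the call was lost without shCtr replicate 2 (Log2FC -1.02, unadjusted p = 0.0760), without shOSGEP replicate 1 (-1.38, unadjusted p = 0.0894) and without shOSGEP replicate 2 (-1.16, unadjusted p = 0.10). It was also lost without both libraries of replicate 1 (Log2FC -1.63, edgeR unadjusted p = 0.0548) and without both of replicate 2 (-0.71, unadjusted p = 0.130). Of the 31-base words of Nfyc, 27.1% were also found in another gene, most of them in Gm9144 (26.5%), so the division of shared reads could shift its level. The partner subunits Nfya (0.07) and Nfyb (0.47) did not pass the threshold.

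Of the interferon ligands, the 3 genes listed, Ifnb1, Ifng and Ifna4, were at 0 counts in all 6 libraries, which allows up to 0.116 to 0.147 CPM by the floor of 3 counts. The 7 receptor and kinase genes tested had a median Log2FC of 0.03, and those with the smallest p were Ifngr1 (0.36, edgeR unadjusted p = 0.494), Tyk2 (-0.29, unadjusted p = 0.568) and Ifnar1 (0.18, unadjusted p = 0.663). Of the genes that act on class I at the surface, Susd6, which promotes its degradation together with Tmem127 and Wwp2, was at 95.2, 66.8 and 93.2 CPM in shCtr and 144, 137 and 111 CPM in shOSGEP, without overlap (Log2FC 0.62, SE 0.376, edgeR unadjusted p = 0.136). Susd6 passed the threshold in edgeR with GC and length offsets (Log2FC 0.67, unadjusted p = 0.0399) and with these and the replicate block (0.66, unadjusted p = 0.0363), and in limma-voom with the block its adjusted p was 0.00675 (Log2FC 0.50). Wwp2 was at a Log2FC of -0.87 (edgeR unadjusted p = 0.158), and at -0.049 without both libraries of replicate 2.

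**Figure D5:**
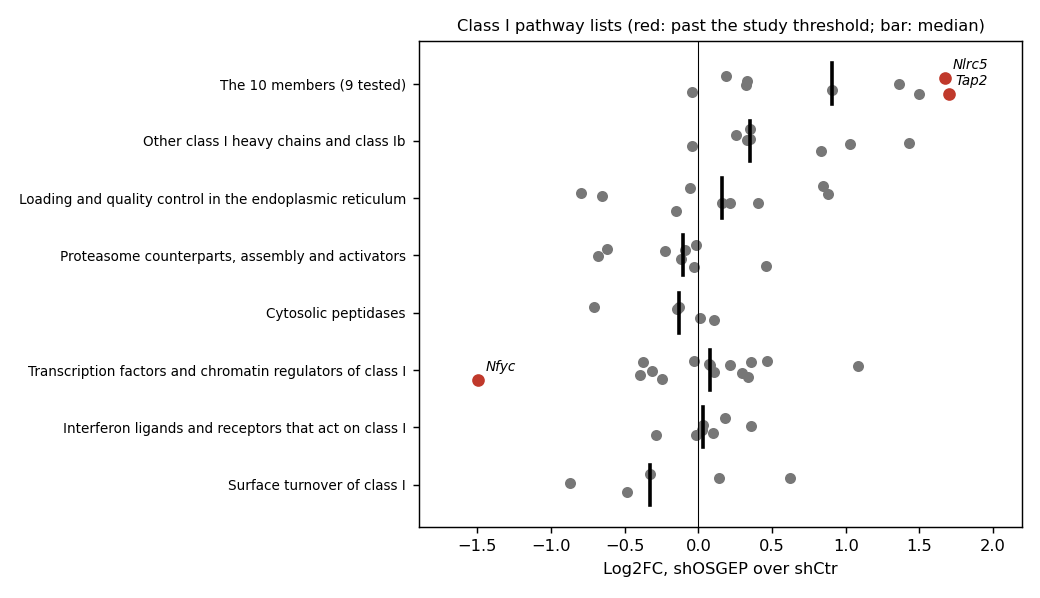
Log2FC of shOSGEP over shCtr (edgeR) for each gene tested of the 10 members and of the 7 lists of related genes, with black bars at the list medians and red points for genes past the threshold of the study. The median is 0.91 for the members and between -0.33 and 0.35 for the other lists, and Nfyc is the 1 related gene in red.

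MHC class II genes, which are not members but are commonly read beside them, were highest in 1 library. The 6 genes of that list summed to 2.93, 6.73 and 4.20 CPM in shCtr and 5.07, 50.1 and 7.09 CPM in shOSGEP. Most of it was Cd74, the invariant chain, which held 1.49, 3.79 and 2.21 CPM in shCtr, against 3.35, 43.1 and 4.50 CPM in shOSGEP. Cd74 was higher in shOSGEP in each number, by 2.25-fold, 11.4-fold and 2.03-fold, and passed the threshold of the study with a Log2FC of 2.76 (SE 1.03, edgeR unadjusted p = 0.0264; limma-voom with the block 1.19, adjusted p = 8.2e-05). Without shOSGEP replicate 2 its Log2FC was 0.68 (edgeR unadjusted p = 0.293), and without both libraries of replicate 2 it was 1.09 (unadjusted p = 0.0635). In shOSGEP replicate 2, 8 of the 9 members tested, all but Psmb10, were also at their highest. Ciita, the class II transactivator, was at 1 count in shCtr replicate 1 and 0 in the others. What part this library's difference has in the values of the class I genes was not tested.

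Genes with the profile most like that of the members were sought by Pearson correlation, over the 6 libraries, with the mean standardised log2 CPM of the 9 members. The closest 8 genes outside the list were Fbxo4 (r = 0.998), Ppp6r2, 2310015A10Rik and B230206L02Rik (0.996 each), Tmem140 (0.995) and Oas1b, Unc93b1 and Ccdc159 (0.993 each). Oas1b belongs to the interferon-induced oligoadenylate synthetase family. Its level was 0.255, 1.13 and 0.277 CPM in shCtr and 0.512, 6.01 and 0.424 CPM in shOSGEP, with shOSGEP replicate 2 the highest and shCtr replicate 2 next, as for Psmb9. The members themselves ranged from 0.640 (Nlrc5) to 0.993 (H2-D1) against their own mean. These values are descriptive, since 6 libraries share 2 that stand apart and dominate the profile.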

How the data were processed

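PolyA RNA of 6 B16F10 libraries (3 shCtr, 3 shOSGEP) was sequenced by the authors in paired reads of 100 bases, from 500 ng of total RNA each. The authors trimmed reads with TrimGalore, aligned them to GRCm38 with STAR 2.6.1d within nf-core/rnaseq and quantified genes with Salmon 1.4.0. The annotation release was not given in the sources used here. The values deposited by the authors are estimated counts per gene, already whole numbers, unscaled and unfiltered. 0 value columns lacked a sample.

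Genes passing filterByExpr (minimum count 10, minimum total 15) were scaled by TMM and tested with edgeR 4.0.16 (R 4.3.3) by its two-sided quasi-likelihood F-test, unblocked, adjusted by Benjamini-Hochberg over 12669 genes. The threshold of the study was an unadjusted p under 0.05 with a Log2FC beyond 0.5. Ratios (0.5 CPM added to each gene) were compared by exact permutation of 3 libraries against 3, with a smallest two-sided p of 0.1 (scipy 1.17.1). Depth and the floor of 3 counts cover counting error only. Deviations of same-numbered libraries from their group means correlated at 0.811, 0.557 and 0.196 in replicates 1, 2 and 3, so the number was taken to pair libraries, and a replicate block was fitted beside the test. Correlations between libraries of different numbers were not taken, and the pairing was read from the same data, so it remains an assumption. The labels do not say what a number marks.

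The members, the related lists and the markers were chosen with earlier results of these data known. Named besides the members were Osgep, the genes with the smallest p of each list (up to 3), the 8 genes most correlated with the members, and markers. Irf1, Rfx5, Nfya, Nfyb and the interferon ligands were named after their values were seen. The second form of the ISRE letters was added after the sequences were seen. H2-L, Hm13 and Nrdc were not found under those symbols. Alternatives were DESeq2 1.42.0, limma-voom (limma 3.58.1) with sample quality weights, without and with the block, RLE and upper-quartile scaling, no filter, at least 10 counts in every library, the block, GC and length offsets (natural splines with 5 degrees of freedom, GENCODE M21, which held 12658 of the tested genes) without and with the block, leaving out each library, and leaving out both libraries of a number. The values of 1 gene of the related lists are not reported here. The scripts were tested on simulated data.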

Additional observations from a re-analysis of the deposited data

How the results depend on the processing

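Over 19 alternatives the count of members past the threshold of the study, 2 at first, was 1 with limma-voom and sample quality weights and 5 when the replicate block was added, and that last fit was the 1 that put members (5) at an adjusted p under 0.05. It was 2 with the replicate block in edgeR, 0 to 2 on leaving out 1 library, and 0, 1 and 0 without both libraries of replicate 1, 2 and 3. The median Log2FC of the members, 0.91, ranged from -0.12 (without shOSGEP replicate 2) to 1.51 (without shCtr replicate 2), passing 1.25 without shOSGEP replicate 1 and 1.26 without shOSGEP replicate 3, and was 0.53 without both libraries of replicate 2. Related genes past the threshold numbered 2 with DESeq2, 3 with limma-voom, upper-quartile scaling or the replicate block, 4 with GC and length offsets, 6 with these and the block, 5 with limma-voom and the block, 0 to 2 on leaving out 1 library, and 0 without both libraries of replicate 1 or of replicate 2, against 1 at first. The share of all genes past this threshold was taken only for the first fit and for edgeR with the block. Counts from the other fits therefore stand without that share and only describe the lists.

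Signs turned without shOSGEP replicate 2 for H2-K1, H2-D1, B2m, Tapbp, Psmb9 and the ratio of Tap1 to Psmb9. On leaving out 1 library, the Log2FC ranged from -0.034 to 2.08 for H2-K1, -0.20 to 1.75 for H2-D1, -0.25 to 0.45 for B2m, 0.12 to 0.83 for Tap1, -0.12 to 0.65 for Tapbp, -0.16 to 2.03 for Psmb9 and -0.68 to 0.99 for Psmb10, and the ratio of Tap1 to Psmb9 from -0.71 to 0.25. B2m also turned with GC and length offsets (-0.59, with the block -0.34) and without both libraries of replicate 2 (-0.0011). Psmb10, at -0.04, was above 0 with limma-voom (0.29, with the block 0.22), upper-quartile scaling (0.13), at least 10 counts in every library (0.032), the block (0.10), the offsets (0.38, with the block 0.34) and without shCtr replicate 2, shOSGEP replicate 1 or 3, or both of replicate 2 (0.32). The cause was not tested. Upper-quartile scaling moved the median of all genes from -0.03 to 0.07.

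Depth limits Psmb8, Psmb9 and Nlrc5 most, since the first lay at the floor and the others held as few as 17 and 16 counts in a library. The spread between infections limits all members: the biological coefficient of variation was 0.566, and 0.385 with the block. With a single hairpin, loss of OSGEP and other effects of that hairpin cannot be told apart.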
